A study of Mus musculus with 6 samples.

Results

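Myelinating oligodendrocytes of the hippocampus were chosen from single-cell RNA sequencing (scRNA-seq) data by the RNA they carried: 882 of 14210 hippocampal cells kept, and of 27530 cells kept in the whole series. A member had at least 1 unique molecular identifier (UMI, a tag that counts RNA molecules) of 5 or more of the 7 myelin markers *Mog*, *Mag*, *Mobp*, *Opalin*, *Ermn*, *Mal* and *Aspa*. It had none of *Gpr17*, *Bmp4*, *Neu4* and *Pdgfra*, genes of the earlier lineage, and at most 1 of *P2ry12*, *Cx3cr1*, *Cldn5*, *Flt1* and *Aqp4*, markers of microglia, endothelial cells and astrocytes. Kept cells had 250 to 6000 genes and under 25% mitochondrial UMIs. Hippocampi of 3 wild-type C57Bl/6J females, 5 weeks old, had been combined in 1 cell suspension, from which 3 technical replicates were run, called libraries 1 to 3 below. White matter had been removed as far as possible at dissection and myelin debris by a Percoll gradient, and what these steps did to the share and kind of oligodendrocytes was not tested. The other 3 libraries of the series were run in the same way from cortex of 3 such females, 3 weeks old. With 1 biological sample per condition no test was possible and no p-value was computed: SDs (n = 3) describe technical replicates, and intervals cover counting error only.

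Oligodendrocytes wrap axons of the central nervous system in myelin, a lipid-rich membrane that is compacted by membrane and basic proteins and attached to the axon beside the nodes of Ranvier. They arise from precursors that express *Pdgfra*, pass through a short committed stage marked by *Gpr17* and *Bmp4*, and then switch on the genes of the myelin sheath. In the mature cell they are also known for storing iron and for supplying axons with metabolites.

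The libraries held 50024850, 47800210 and 43963706 UMIs in 5232, 5210 and 4894 barcodes. Of the cells kept, 313 of 4806 (6.51%), 277 of 4830 (5.73%) and 292 of 4574 (6.38%) were members, a mean of 6.21% ± 0.417 (SD, n = 3). Over all 3 libraries the exact Clopper-Pearson interval of the share was 5.82 to 6.62%. The members were deep cells, with median totals of 20929, 20678 and 20104.5 UMIs against 6532, 6725 and 6437 in the remaining hippocampal cells, and with 4501, 4492 and 4431 genes against 2511, 2542 and 2469. Mitochondrial genes took a median of 7.50, 7.59 and 7.63% of their UMIs against 4.53, 4.45 and 4.47%. Cell barcodes were shared between hippocampal libraries in 926 cases (6.04% of barcodes), of which 3 were members, and 28 members (3.17%) were called doublets by Scrublet against 4.09% of all kept cells. Called doublets were kept unless stated.

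The markers split the cells sharply. All 7 were found in 859 of the 882 members, and only 7 members stood at the limit of 5, with a median of 896 UMIs. Just outside it were 7 cells with 4 markers that met the other conditions, with a median of 660 UMIs. Among the 1102 kept cells with 5 or more markers, 109 were not members only because of an early-lineage gene, 98 only because of 2 or more markers of other cells, and 13 for both reasons. *Gpr17* barred 95 of the 109, in 58 of them through 1 UMI. Of the 98 cells barred by other markers, 36 were called doublets. These barred cells belong to the remaining cells, 210 of which had all 7 myelin markers, which lowers the ratios of myelin genes to the remaining cells given below.

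**Figure D1:**
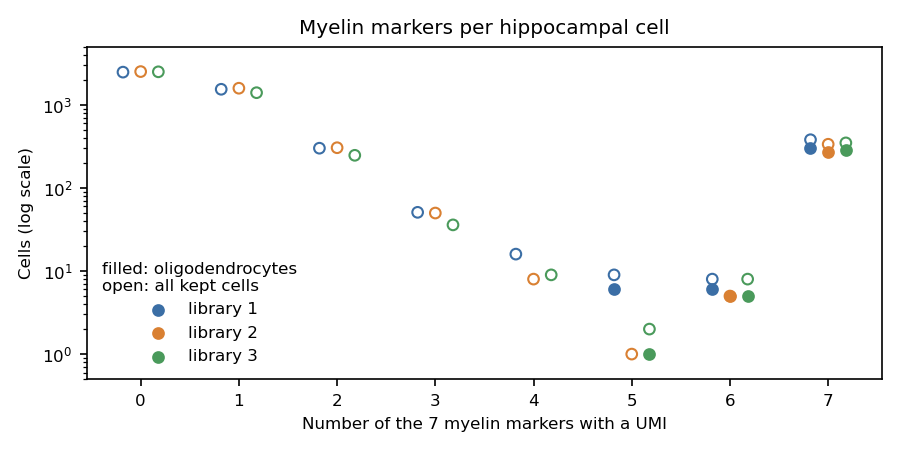
Number of kept hippocampal cells (y axis, log scale) by the number of the 7 myelin markers with a UMI (x axis), for each library. Filled points are members and open points all kept cells: few cells lie between 4 and 6 markers, and 859 members sit at 7.

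The label was checked on 7 oligodendrocyte markers that the rule did not use. Levels are given in CPM, the UMIs of a gene per 1000000 UMIs of the same cells. *Cldn11* (GENCODE M21 on GRCm38, chr3:31149920-31164324, plus strand), the tight junction protein of myelin, stood at 5913, 5671 and 5385 CPM in libraries 1 to 3 against 450.1, 382 and 371 CPM in the remaining cells. The libraries agree within a narrow range and the groups do not overlap. *Mbp*, *Cnp*, *Hapln2*, *Trf*, *Ugt8a* and *Fa2h* were also higher, with log2 ratios of 3.14, 3.41, 4.17, 2.91, 3.63 and 3.81 (5 CPM added to both sides here and below, mean of the 3 libraries). All 7 stood higher than in the remaining cells by 4-fold or more in each library, so the label fits these markers. Of markers of Schwann cells, the myelinating cells of peripheral nerve, *Prx* and *Pmp2* were at 0 UMIs in all members and *Ncmap* stood at 0.932 CPM.

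Myelin RNA was also found in droplets of cells that should lack it. As a share of the level in members, *Cldn11* stood at 1.87% and *Ugt8a* at 1.78% in microglia. Most of this lay in few cells: without the 244 of 5441 microglia called doublets the shares were 0.665 and 0.657%, and without the 77 that had 3 or more of the myelin markers, a choice made after the data were seen that itself lowers myelin genes, they were 0.18 and 0.183%. Microglia, endothelial cells and astrocytes were named from 3 markers each and had median depths of 6644, 6878 and 7335 UMIs against 20476 in the members. *Trf* was the exception, at 19.6% in microglia, or 18.4% without the 77 cells, but 1.35% in endothelial cells. In the other direction a member held on average 2.29 UMIs of 8 microglial markers, where a microglial cell held 333, an endothelial cell 1.39 and an astrocyte 1.27. No defining microglial marker was at 0 in the members. The part of free RNA in the low levels below was not tested.

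The members were then compared with the 13328 remaining hippocampal cells. Of 10148 genes that reached 10 CPM in either group and that the rule for members did not use, 379 (3.73%) were higher by 4-fold or more in each of the 3 libraries. Lower by as much were 1448 (14.3%), and the median log2 ratio over all 10148 was -0.33. The members were chosen from these same cells, so the counts are a description. A gene under 10 CPM in the members was tested only through the remaining cells and could be called lower but not higher. For genes under 10 CPM in the remaining cells the reverse holds. Among the 379 were 10 of 11 listed proteins of the myelin membrane (median log2 ratio 3.14), 8 of 10 genes of axon contact and gap junctions (2.72), 8 of 10 of the cytoskeleton and septins (3.18), 7 of 12 of myelin lipid synthesis (2.29), 7 of 11 transcription factors (2.94), 9 of 14 receptors and signalling genes (3.07) and 7 of 15 genes of metabolic support and iron (1.95). Only 1 of 22 genes of cholesterol synthesis was among them. When the remaining cells with 3 or more myelin markers were left out, an alternative chosen after the data were seen, the median of the membrane proteins was 5.00 and all 10 contact genes were higher. With 5 cell classes weighted equally, 237 genes were higher in place of 379.

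**Figure D2:**
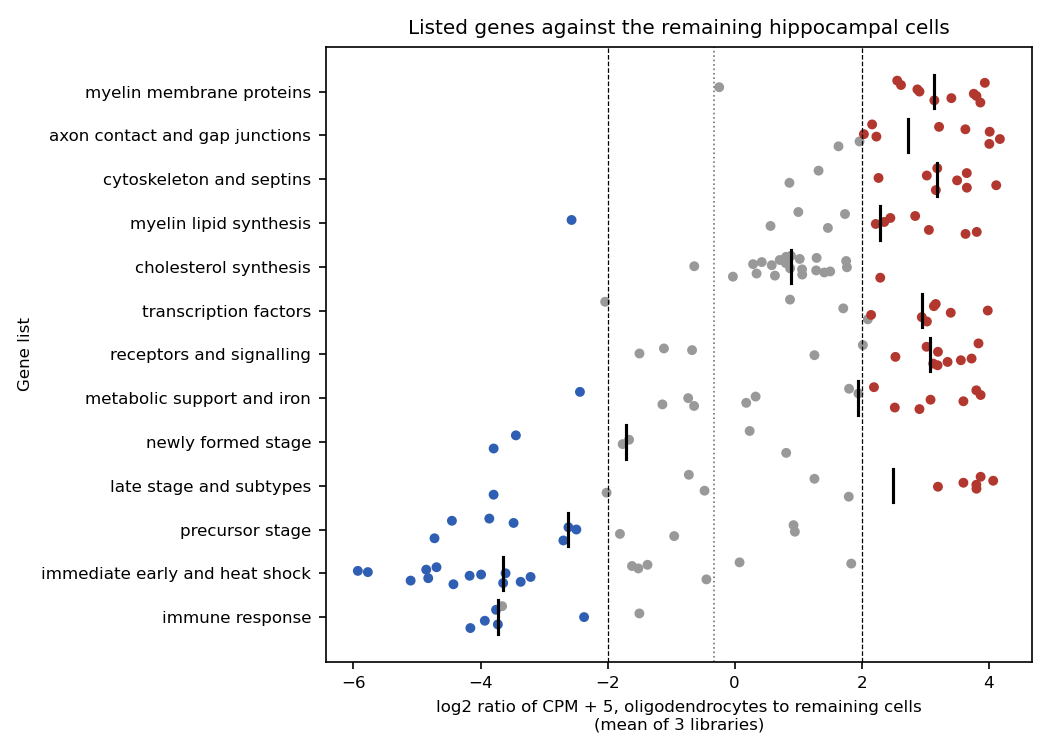
Each point is a listed gene, placed by its log2 ratio of CPM + 5 between the oligodendrocytes and the remaining cells (x axis, mean of 3 libraries), by list (y axis). Red and blue genes were higher or lower by 4-fold or more in each library, grey ones neither, black bars are list medians, dashed lines mark 4-fold and the dotted line is the median of all genes, -0.33. Myelin lists lie to the right, cholesterol synthesis near 0.88, and the early and heat shock, immune and precursor lists mostly to the left.

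Of the membrane proteins, *Tmem88b* (log2 ratio 3.94 ± 0.14, SD, n = 3), *Cldn11* (3.81 ± 0.09) and the tetraspanin gene *Tspan2* (3.76 ± 0.07) led the list. The exception was the tetraspanin gene *Cd9*, at 938, 1021 and 902 CPM against 1092, 1195 and 1101 CPM in the remaining cells, a log2 ratio of -0.24. *Gpm6b*, a glial membrane protein, stood at 2235, 2209.8 and 2178 CPM against 375, 362 and 374, and its relative *Gpm6a* at 5.89, 7.45 and 5.99 against 344, 325 and 351. The members were thus high in *Gpm6b* and nearly without *Gpm6a*, with log2 ratios of 2.56 and -4.91.

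Some genes of the junction between myelin and axon had ratios well above the median of their list (2.72). *Hapln2*, a link protein of the matrix at the nodes (chr3:88021750-88027583, minus strand), stood at 231, 208 and 226 CPM against 8.79, 5.72 and 8.30 CPM, 29.3 times (95% interval 27.1 to 31.8) the level of the remaining cells. *Cntn2*, an adhesion molecule of the juxtaparanode, stood at 389, 391 and 385 CPM against 23.5, 16.9 and 18.4. The gap junction genes *Gjb1* and *Gjc3* had log2 ratios of 4.01 and 3.22. In all 4 of these genes each library of the members lay above each library of the remaining cells. *Nfasc*, whose glial form anchors the paranodal loops, was at 375 CPM against 117 and did not reach 4-fold, with a log2 ratio of 1.63 that was -0.25 when 5 cell classes had equal weight. Of the cytoskeleton, *Anln* had the highest ratio (4.12 ± 0.18), followed by *Tubb4a*, a tubulin of myelinating cells (3.65), and *Gsn*, the actin-severing gelsolin (3.65). The septin genes *Sept4*, *Sept8* and *Sept7*, whose products form filaments in the myelin sheath, had ratios of 3.50, 3.02 and 2.26, and *Sept2* only 0.86.

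Beyond the lists, the highest ratios to the remaining cells were those of *Pex5l* (4.36 ± 0.25), which binds and regulates HCN channels, and *Sez6l2* (4.17 ± 0.20). *Pex5l* (chr3:32949408-33143247, minus strand) stood at 596, 625 and 619 CPM against 30.9, 22.7 and 22.6. *Stmn4*, a stathmin that binds tubulin, followed at 3.98, then *Edil3* (3.92), *Slain1* and *Tnfaip6* (both 3.86) and the potassium channel gene *Kcna1* (3.85). The other genes of the 20 highest lay between 3.67, for the small heat shock protein gene *Cryab*, and 3.84, for *Tmem151a*. The 10 lowest that no list held included *Gpr34* (-6.98), *Selplg* (-6.97), *Trem2* (-6.55) and *Mef2c* (-6.54), genes of microglia, which made up 5441 of the remaining cells.

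Promoters were searched because many genes stood high together. The 250 bases before the start given by RefSeq (GRCm38.p6) were found for 285 of the 379 higher genes and searched on both strands for 4 motifs: ACAAAG and ACAATG, cores that SOX factors bind, CTGGCAC, a core bound by MYRF, and CAGCTG, an E-box, which reads the same on both strands. CAGCTG was found in 23.9% of the higher genes' promoters, in 14.1% of those of the 7859 tested genes with one and in 13.0% of 32851 promoters in all. ACAAAG was found in 19.6, 14.4 and 16.5%, ACAATG in 9.47, 7.81 and 10.7%, and CTGGCAC in 7.37, 5.19 and 4.19%. A match is a description of the letters, not a bound site. The 3 promoters below, of *Hapln2* (chr3:88027512-88027761, minus strand), *Opalin* (chr19:41077114-41077363, minus strand) and *Mobp* (chr9:120149492-120149741, plus strand), are shown because *Hapln2* was the most enriched listed gene and held 3 of the motifs, *Opalin* is a marker of the mature cell, and *Mobp* held ACAAAG 6 times. Motifs on either strand are in capitals, so that CTTTGT is ACAAAG and GTGCCAG is CTGGCAC on the opposite strand, and no letter fell in 2 motifs.
Hapln2: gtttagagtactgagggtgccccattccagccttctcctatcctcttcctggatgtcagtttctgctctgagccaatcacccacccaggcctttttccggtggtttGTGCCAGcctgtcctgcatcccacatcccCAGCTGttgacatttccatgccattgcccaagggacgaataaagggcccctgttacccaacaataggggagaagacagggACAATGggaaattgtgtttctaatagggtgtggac
Opalin: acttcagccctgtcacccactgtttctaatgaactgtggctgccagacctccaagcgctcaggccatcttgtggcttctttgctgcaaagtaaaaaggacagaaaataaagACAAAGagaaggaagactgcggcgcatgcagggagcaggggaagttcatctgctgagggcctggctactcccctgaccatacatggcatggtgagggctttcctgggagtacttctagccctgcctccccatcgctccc
Mobp: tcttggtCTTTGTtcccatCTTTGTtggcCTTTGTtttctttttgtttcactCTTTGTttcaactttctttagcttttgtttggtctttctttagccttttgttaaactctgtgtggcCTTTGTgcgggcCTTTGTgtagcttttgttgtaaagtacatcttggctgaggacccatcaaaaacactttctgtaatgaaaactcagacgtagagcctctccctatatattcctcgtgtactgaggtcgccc
The promoters of *Nkx6-2*, *Mog* and *Anln* held none of the 4.

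Of the 12 genes of myelin lipid synthesis 7 were higher by 4-fold or more, beside 3.73% of all genes. *Fa2h*, which hydroxylates the fatty acids of myelin lipids, stood at 688, 708 and 702 CPM against 49.8, 41.7 and 44.4 CPM, and *Ugt8a*, which makes galactocerebroside, at 1296, 1315 and 1309.8 against 110, 93.6 and 99.3. They were 15.4 and 13 times the level of the remaining cells, and the sulfatide enzyme *Gal3st1* and the desaturase *Scd2* had log2 ratios of 3.06 and 2.84. *Sgms1*, a sphingomyelin synthase, was lower (-2.57). The 22 cholesterol genes had a median log2 ratio of 0.88, against -0.33 over all genes, and 1 of them reached 4-fold, a share near the 3.73% of all genes. It was *Hmgcs1*, an early enzyme of the pathway, at 845, 799 and 754 CPM against 169, 146 and 163.

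Among the transcription factors, *Nkx6-2* (3.98 ± 0.14) and *Myrf*, which drives myelin genes (3.40 ± 0.13), had the highest ratios, followed by *St18* (3.16), *Zfp536* (3.13), *Olig1* (3.02) and *Sox10* (2.94). *Olig2* and *Nkx2-2* did not reach 4-fold in each library. *Tcf7l2*, a factor of the newly formed cell, stood at 27 CPM against 127. Of the receptors and signalling genes, *Efnb3* (3.84), the orphan receptor gene *Gpr37* (3.73), the sphingosine phosphate receptor gene *S1pr5* (3.56) and the lysophosphatidic acid receptor gene *Lpar1* (3.35) led. *Il33*, an alarmin cytokine kept in the nucleus, stood at 224, 236 and 197 CPM against 18.8, 21.6 and 17.8. The libraries of the members lay above those of the remaining cells in *Il33* without overlap.

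Genes of iron handling and metabolism were divided. *Trf*, the iron carrier transferrin, stood at 5099.7, 4945 and 4835 CPM against 706, 631 and 635 CPM, and *Fth1*, the heavy chain of the iron store ferritin, at 17717, 17417 and 17416 against 3146, 3002 and 3004. *Ftl1*, the light chain, was not higher, at 967 CPM against 1508, nor was the transferrin receptor gene *Tfrc*, at 38.3 against 90.1. The chains of ferritin thus stood on opposite sides of the remaining cells. *Car2*, a carbonic anhydrase, *Qdpr*, which regenerates tetrahydrobiopterin, and the lipocalin gene *Apod* had log2 ratios of 3.60, 3.87 and 3.80. *Slc16a1*, the lactate transporter, was at 103 CPM against 175, and *Ldhb*, a subunit of lactate dehydrogenase, at 89.9 against 508, lower by over 4-fold in each library.

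Immediate early genes encode mostly transcription factors that respond quickly to stimuli, and they were listed together with heat shock genes. The list was compared with the remaining cells, of which microglia were the largest class named. Of 19 listed early and heat shock genes, 13 were lower by 4-fold or more, beside 14.3% of all genes, with a median log2 ratio of -3.64. *Fos* stood at 13, 20.5 and 25.8 CPM against 522, 524 and 498, *Klf2* at 3.77 against 526 and *Btg2* at 6.91 against 630. *Fos* and *Egr1* (2.48, 7.28 and 16.8 CPM) varied between the libraries but lay below every library of the remaining cells. The heat shock gene *Hsp90aa1* went the other way, at 1819 CPM against 507. Against precursors 2 of 16 were lower, beside 8.76% of all genes (median -0.87). Against committed cells none of the 10 genes tested differed by 4-fold in each library, beside 0.398% of all genes higher and 3.88% lower, so that few or none would be called at those shares. Of 7 immune genes 5 were lower, among them *B2m*, the light chain of MHC class I, at 42.4 CPM against 842. *Cd74*, of MHC class II, was at 0.465, 0 and 29.4 CPM, nearly all in library 3.

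Markers of other cells were low in the members, as the rule in part requires. Lower by 4-fold or more were 8 of 8 microglial, 6 of 6 endothelial, 6 of 7 astrocytic, 8 of 8 mural, 5 of 5 blood, 3 of 4 ependymal, 2 of 6 choroid plexus and 1 of 4 neuronal markers tested, beside 14.3% of all genes. The last 2 counts rest on few genes and moved with the settings: they were 5 of 6 and 2 of 3 without replicate 2, 2 of 6 and 2 of 5 without replicate 3, and 3 of 6 and 2 of 4 without called doublets. The astrocytic list summed to 176, 219 and 195 CPM in libraries 1 to 3, led by *Slc1a3*, and the choroid plexus list to 156, 92.9 and 84.8 CPM, almost all of it *Ttr*, the transport protein of the choroid plexus. The mural, endothelial and neuronal lists each summed to no more than 17.2 CPM in every library. Of the stage lists, 6 late genes were higher and 1 lower of 12 (median 2.50), 2 of 6 newly formed genes were lower (-1.71) and 7 of 11 precursor genes were lower (-2.62), beside 3.73% of all genes higher and 14.3% lower. The median of the newly formed genes was -0.67 when the 4 early-lineage genes were not used as a bar.

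Stage was read from 2 earlier classes of the hippocampal libraries, 76 precursors and 158 committed cells. Precursors had 3 or more of *Pdgfra*, *Cspg4*, *Lhfpl3*, *C1ql1* and *Matn4* and none of *Enpp6*, *Opalin* and *Aspa*. Committed cells had 2 or more of *Gpr17*, *Bmp4*, *Neu4* and *Enpp6* and no *Pdgfra*, and 28 of them had all 7 myelin markers. The precursors are few, 15 to 34 in a library, and their median depth was 9252 UMIs against 23536.5 in committed cells. Genes that set a class were left out of the counts. Against precursors 326 of 10201 genes (3.2%) were higher by 4-fold or more in the members and 894 (8.76%) were lower, with a median of -0.59. Under scaling by the median of ratios these counts were 455 and 763, while 485 were lower after thinning to 1000 UMIs and 1449 with a pseudocount of 1 CPM. Against committed cells 34 of 8533 genes (0.398%) were higher and 331 (3.88%) lower, with a median of -0.23. The 34 depended on the settings: 293 were higher when the 4 early-lineage genes were not used as a bar, 115 after thinning to 1000 UMIs, 100 without replicate 3, 65 with a pseudocount of 1 CPM and 57 under scaling by the median of ratios. With that pseudocount 537 were lower.

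*Cldn11* stood at 25.8, 8.59 and 8.83 CPM in precursors and 3683, 3237 and 3876 CPM in committed cells, against 5656 CPM in the members. *Mbp* went the other way between the later stages, at 6742 CPM in committed cells and 4585 in the members. Of the 11 membrane genes 7 were higher than in precursors by 4-fold or more, beside 3.2% of all genes. None was higher than in committed cells, where 0.398% of all genes were, so nothing is read from that count, and *Cd9* was lower, at 954 CPM against 5263. *Nkx6-2*, *Serpinb1a* and *Lpar1* had no UMI in the precursors and were at least 151, 75.9 and 132 times higher in the members, against a floor of 3 counts over all precursors.

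Of the late list, 7 of 12 genes were higher than in committed cells, beside 0.398% of all genes (median log2 ratio 2.60). *Il33* stood at 14.2, 21.3 and 1.64 CPM in committed cells and 224, 236 and 197 CPM in the members. *Ptgds*, prostaglandin D2 synthase, stood at 1361, 1545 and 1306 and 8561, 10391 and 11558 CPM, and *Apod* at 328, 277 and 603 and 2559.5, 2520.3 and 2489.7. None of these ranges overlap. *Glul*, glutamine synthetase, stood at 124, 113 and 119 CPM in committed cells and 1108, 1095 and 1084 in the members, and *Hcn2*, a channel gated by hyperpolarization, at 19, 19.7 and 18.1 and 202, 212 and 201. *Grm3*, a metabotropic glutamate receptor gene, had a log2 ratio of 2.81 and the G protein subunit gene *Gng11* one of 3.41. *S100b* was the late-list gene that was lower, at 89.7 CPM against 1205.

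Genes of the newly formed stage were lower than in committed cells in 6 of 6 tested, beside 3.88% of all genes, with a median log2 ratio of -4.16. Of the genes tested only *Lims2* reached 10 CPM in the members. The others were tested only through the committed cells and could not be called higher. Committed cells were also chosen by genes of this stage, so nothing is read from the count. *Itpr2*, a calcium release channel, stood at 638, 564 and 547 CPM in committed cells and 4.49, 3.12 and 5.49 in the members. *Tcf7l2* stood at 1059 and 27 CPM, and *Fyn*, a kinase of early myelination, at 2292 and 48. *Nfasc*, of the contact list, was lower too, at 375 CPM against 2141. Among the named genes that no rule used, the lowest log2 ratios were those of *Marcks* (-7.89 ± 0.31), *Tnr* (-7.76 ± 0.14), *Rtn1* (-7.69 ± 0.11) and *Tubb2b* (-6.76 ± 0.58). *Tnr*, which encodes the matrix protein tenascin-R, stood at 1369, 1088 and 639.9 CPM in precursors and 1297, 1259 and 1065 in committed cells, which overlap, and at 0.592 CPM in the members. The members were nearly without it. All 8 tested genes of the precursor list were lower than in precursors, beside 8.76% of all genes (median -7.08), among them *Ptprz1* (-8.22) and the cell cycle gene *Ccnd1* (-7.21). Precursors were chosen by genes of this stage, and the whole list summed to 75.6, 81.6 and 67.2 CPM in the members. Genes under 10 CPM there were tested only through the precursors and could not be called higher, so nothing is read from the count. *Enpp6*, used to choose the committed cells, stood at 79.8, 63.4 and 73.5 CPM in the members.

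**Figure D3:**
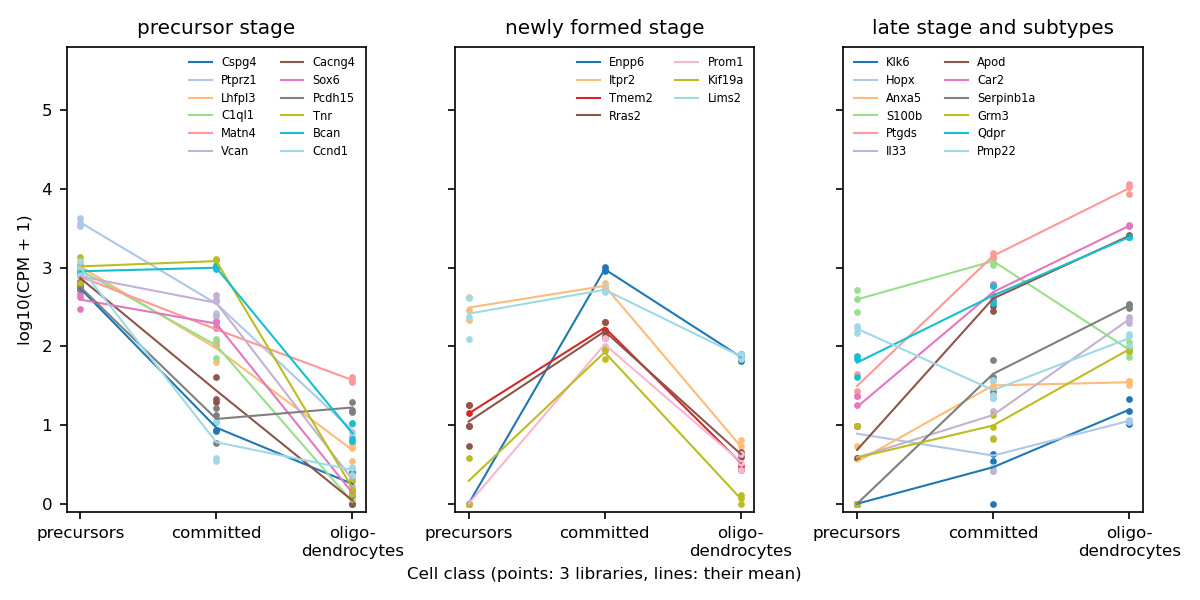
Level (y axis, log10 of CPM + 1) of the genes of 3 lists in precursors, committed cells and oligodendrocytes (x axis). Points are the 3 libraries and lines join their means: most of the precursor list falls to low levels, the newly formed list peaks in committed cells, and most late genes are highest in the oligodendrocytes, with *S100b* and *Pmp22* as exceptions.

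The level of each gene across all classes is shown in the map of levels by class. It places the myelin, junction and lipid genes in the members and committed cells, *Gpm6b* also in precursors and astrocytes, and *Trf* also in microglia.

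**Figure D4:**
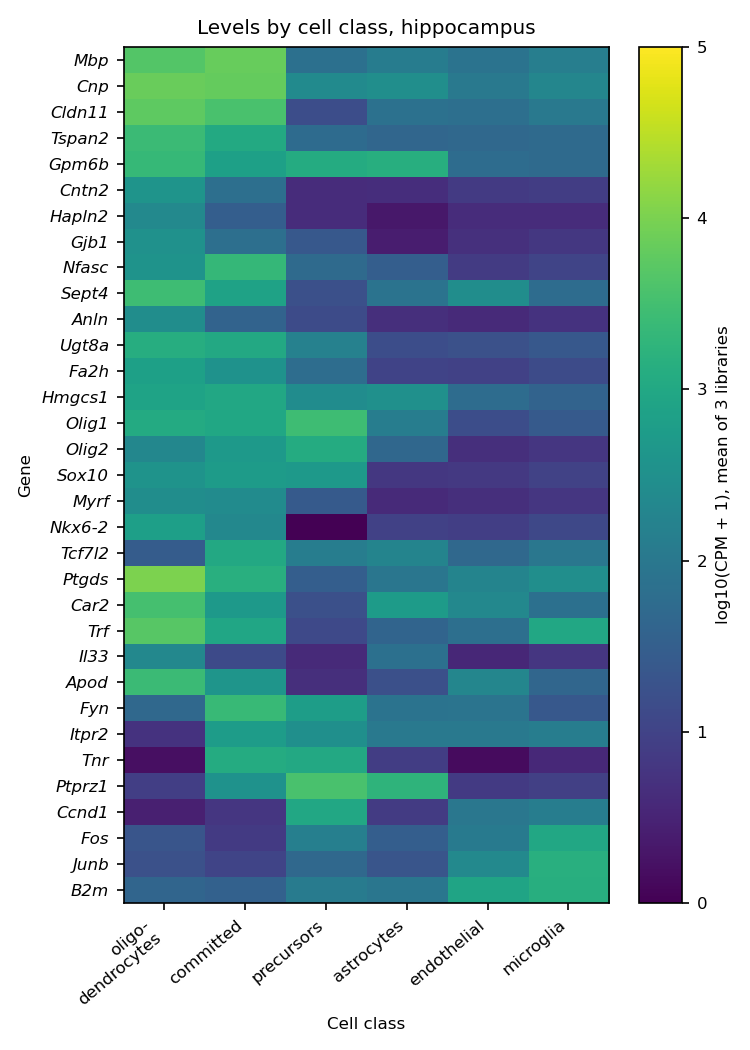
Mean level of 33 genes (rows, log10 of CPM + 1, mean of 3 libraries, color scale) in 6 cell classes of the hippocampus (columns). *Ptgds* reaches 10170 CPM in oligodendrocytes, and *Nkx6-2* has no UMI in precursors.

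The members were not uniform. Of 8835 genes with at least 0.1 UMIs per cell, 266 (3.01%) varied among the members by 2 or more times the variance that counting at each cell's depth gives, in each library, and 5 did so after thinning to 1000 UMIs. *Ptgds* varied most, by at least 209 times (chr2:25466709-25470046, minus strand). Its median was 55.0, 86.2 and 92.1 UMIs per 10000 in libraries 1 to 3, and 76.0 over all members, where the lowest 10% held at most 1.18, the highest 10% at least 258 and a single cell 842. Library 1 was lower than the others, as in the summed level. *Malat1*, *Apoe*, *Fth1* and *Actb* were also among the most variable. *S100b* was found in 305 members, *Fos* in 82, *Gja1*, the astrocytic connexin, in 41 and *Ifi27l2a* in 17.

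**Figure D5:**
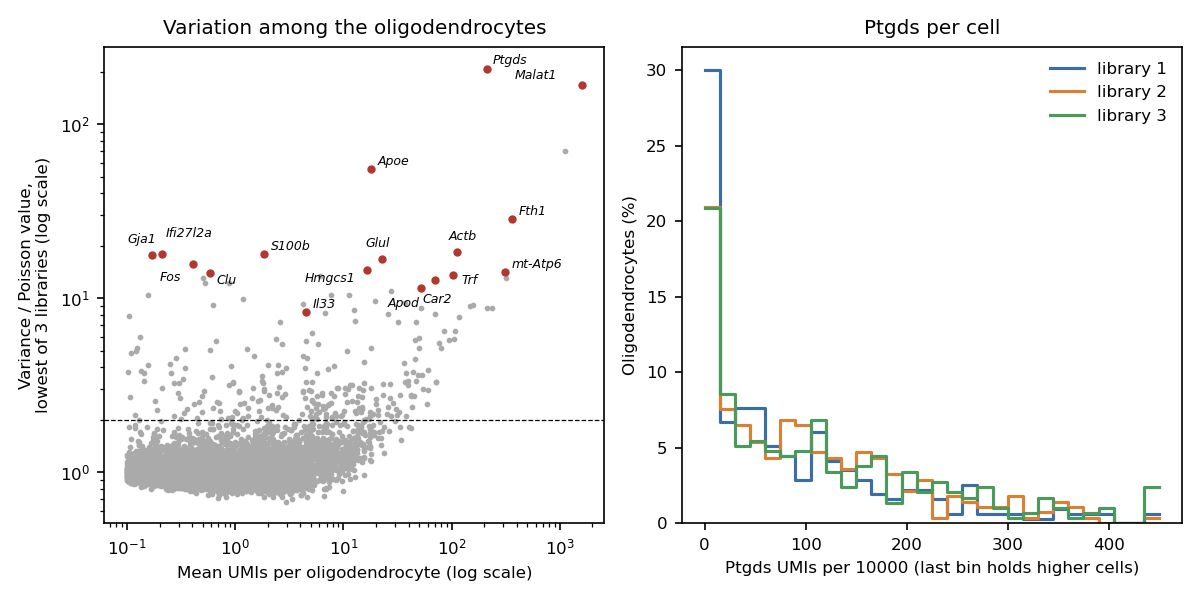
Left, variance over members divided by the Poisson value (y axis, lowest of 3 libraries, log scale) against mean UMIs per member (x axis, log scale) for each gene, with the most variable named genes in red and a dashed line at 2. Right, share of members (y axis, %) by *Ptgds* UMIs per 10000 (x axis) for each library: the lowest bin, 0 to 15, holds 30.0, 20.9 and 20.9% of the members of libraries 1 to 3, and the highest cell reached 842.

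Pairs of genes varied together over the members. Over the 313, 277 and 292 members of the libraries, Spearman's rho of *Glul* with *Hcn2* was 0.73, 0.74 and 0.74, and of *Glul* with *Mal* -0.62, -0.68 and -0.70. *Apod* went with *Trf* (0.67, 0.62 and 0.67) and ran against *Cd9* (-0.60, -0.63 and -0.67), while *Cd9* went with *Opalin* (0.56, 0.63 and 0.65) and *Mal* with *Tspan2* (0.68, 0.66 and 0.67). *Gng11* went with *Serpinb1a* (0.62, 0.62 and 0.62) and *Trf* (0.65, 0.59 and 0.68) and against *Mal* (-0.60, -0.62 and -0.61). *Ptgds* went with *Apoe* (0.53, 0.57 and 0.63). The pairs were chosen after their values were seen. They are descriptions over cells that share a library, and values are shares of each cell's UMIs, so that abundant genes are tied to each other. Some of these genes also went with the total UMIs of a cell in each library: *Mal* (0.47, 0.38 and 0.41), *Tspan2* (0.48, 0.47 and 0.44) and, in the opposite direction, *Glul* (-0.30, -0.27 and -0.28). The part of depth in the pairs was not tested.

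A small group of members carried *Klk6*, a secreted protease: 28, 24 and 25 cells, 77 in all, of which 25 had 3 or more UMIs. Their median depth was 20094 UMIs against 20479 in the 805 without it. They held *S100b* at 476, 431 and 462 CPM in the libraries against 44.3, 37.1 and 80.7, and *Pmp22*, a myelin protein best known from peripheral nerve, at 629.9, 391 and 433 against 85.4, 71.1 and 115. *Anxa5*, *Hopx* and *Serpinb1a* were also higher, at 116, 27.8 and 707 CPM over all 3 libraries against 25.8, 8.60 and 292. Members with and without *Klk6* did not overlap over libraries in any of these 5 genes. *Ptgds* was lower, at 1871, 4707 and 6119 CPM against 9229, 10953 and 12063, and so was *Il33*, at 61.3 against 234. *Mbp* overlapped between the groups, at 4705 against 4578 CPM. Cells without a UMI of *Klk6* may still express it, the split was chosen after values were seen, and its differences were not tested.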

How the data were processed

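Single-cell RNA-seq was performed by the authors on the 10x Genomics platform. They deposited UMI counts per gene and barcode, not normalized, for 3 hippocampal and 3 cortical libraries, each set from 1 pool of 3 mice. Per the labels, Cell Ranger 5.0.1 and mm10 were used, whereas the matrix headers name versions 3.1.0 (hippocampus) and 3.0.1 (cortex). UMIs were summed per class and library and given as CPM, and log2 ratios were computed with 5 CPM added. Genes at 10 CPM or more in either group were compared, and a gene was called at 4-fold in each of the 3 libraries. Exact conditional Poisson intervals (95%) were computed, and methods were tested on simulated data. Levels are not divided by gene length, so they are not compared between genes. Doublets were called with Scrublet (0.8% per 1000 barcodes). Members, classes and 22 gene lists (220 genes, 1 not listed in the hippocampal counts under its symbol) were chosen with earlier results of these data known. Named genes were the extremes of each list, the 20 highest and 10 lowest to the remaining cells, the 10 highest and lowest to each earlier class, the 15 most variable, *Gpm6a* and *Gpm6b*, and some of these are not reported here. Other genes named, and the *Klk6*, *Enpp6* and *Il33* splits, were chosen after their values were seen. Python 3.11.15, numpy 2.4.6, scipy 1.17.1, pandas 2.3.3 and scanpy 1.11.5 were used.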

Additional observations from a re-analysis of the deposited data

Results flagged for a closer look

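Cells that met the same rule were also found in the cortical libraries, which no comparison above uses: 20 of 13320 kept cells (0.15%, exact interval 0.0917 to 0.232%), 9, 7 and 4 per library. Region, age, preparation and gene annotation (27998 genes listed in the hippocampal libraries and 31053 in the cortical ones) differ together and cannot be told apart. These cells held 1008 CPM of *Ptgds*. For 5 genes the ratio to the remaining cells had one sign in all cortical libraries and the opposite sign in all hippocampal ones, and the difference was not tested: *Sema5a*, with a log2 ratio of 2.39 in the cortex and -1.11 in the hippocampus, *Lims2* (-0.44 and 0.24, the latter -1.30 with equal weight of 5 cell classes, which was not computed for the cortex), *Il33* (-0.93 and 3.20), *Glul* (-0.51 and 0.33) and *Grm3* (-0.59 and 1.26). The share of all genes with such opposite signs is not given here, so nothing is read from the count of 5. In cortical members *Il33* stood at 5.33 CPM, close to the 5 CPM added to both sides. The cortical members held only 214030, 209930 and 138390 UMIs in libraries 1 to 3, so this *Il33* level and its ratio rest on very few UMIs.

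In the hippocampus, 89 barcodes over the limit of 6000 genes had 5 or more myelin markers and were not analysed above. Their median total was 48873 UMIs, and they held 2071 CPM of *Ptgds* and 67.2 CPM of the endothelial gene *Cldn5*. Doublets were not called for barcodes outside the limits.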

How the results depend on the processing

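No paired analysis was possible because no test was made: the libraries are technical replicates of 1 pool. The share of members was 6.98% with the 4 early genes not used as a bar, 4.51% with no marker of other cells allowed, and 6.06 to 6.45% when leaving out each replicate. Of the genes higher than in committed cells, 34 as reported, there were 293 without the bar, 65 with a pseudocount of 1 CPM, 57 under median of ratios scaling, 115 in cells thinned to 1000 UMIs, and 35 to 100 when leaving out each replicate. The genes lower than in committed cells were 537 with a pseudocount of 1 CPM in place of 331. Those lower than in precursors were 1449 with that pseudocount and 485 after thinning in place of 894. Those higher than in the remaining cells were 237 with equal weight of 5 cell classes in place of 379, and the variable genes among the members were 5 after thinning in place of 266. For 140 named genes under 17 settings, 1720 of 2380 ratios moved by less than the SD over libraries, and 660 moved by more. Of these ratios 12, in 7 genes, changed sign, and none of the 12 was past 4-fold as reported: 5 did so with equal weight of 5 cell classes (*Nfasc*, *Enpp6*, *Lims2*, *Matn4* and *Pcdh15*, to between -2.56 and -0.25), 6 were of ratios that lay at -0.03 as reported, and 1 was of *Dnajb1*, at -0.24 in thinned cells. The cause of these shifts was not tested. The 76 precursors, in which 3 counts are 4.34 CPM, limit what can be seen of low genes.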

Other observations

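*Enpp6*, a choline phosphodiesterase of newly formed cells, still had a UMI in 350 members (139, 99 and 112 per library), 191 of them with 3 or more. Their median depth was 20724 UMIs against 20336.5 in the other 532. Members with *Enpp6* held *Ptgds* at 3564, 4558 and 4053 CPM in libraries 1 to 3 against 12759, 13701 and 16254, and *Apoe*, which carries lipids, at 465 CPM against 1147. *S100b* stood at 162, 179.5 and 262 CPM against 17.4, 12 and 20, *Pmp22* at 259 against 36.4 and *Klk6* at 35.1 against 1.19. Members with *Enpp6* were thus low in *Ptgds* and high in *S100b*, in every library. Of the other newly formed genes, *Itpr2* was at 5.85 against 3.40 CPM and *Rras2* at 2.86 against 3.58, with overlapping libraries. *Lims2*, at 62.7 against 81.3, *Prom1*, at 1.63 against 2.94, and *Tmem2*, at 0.952 against 3.21, were lower in members with *Enpp6* without overlap, and *Kif19a* was at 0.136 against 0.184, and *Casr* had no UMI in either group. *Opalin* and *Mal* were lower, at 1347 against 1912 and 9989 against 12535 CPM.

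*Il33* was found in 517 members (183, 165 and 169). They held *Ptgds* at 10098, 12311 and 13254 CPM against 6309.8, 7781 and 9339.5 in the 365 without it, and *S100b* at 28.8 against 174. *Mal* overlapped between the groups, at 11717 and 11222 CPM. These splits were chosen after values were seen and were not tested.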
